A study of Mus musculus with 3 samples.

Results

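The unfolded protein response (UPR) was followed here through 10 genes, Hspa5, Hsp90b1, Xbp1, Atf4, Atf6, Ddit3, Trib3, Herpud1, Dnajb9 and Nfe2l1, chosen by name as its chaperones, transcription factors and effectors. All 10 were among the 21214 genes present in all 3 tables of RNA counts from single nuclei of mouse brown adipose tissue (BAT). The 3 libraries came from BAT without treatment, BAT after denervation and BAT after a sham operation, all from adult mice of the C57Bl6 strain that the labels give as wild-type. The run name in the header of the denervated table carries the letters KO and that of the untreated table does not, and whether this bears on genotype could not be told from the sources used here. By the study's methods the mice were males of 8 weeks, the untreated and denervated libraries each pooled nuclei of 20 mice, and the denervated BAT was taken 3 days after 1 side of the interscapular BAT had been denervated. The pool and the day of the sham library were not given in the sources used here, and the text on the denervated library also names tamoxifen in 1 place, so a further difference between the libraries cannot be told apart from denervation. Each condition was 1 library, so differences between libraries had no replicate check and no p-value was computed.

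The UPR is the set of signals by which a cell adjusts the folding capacity of its endoplasmic reticulum (ER). A few membrane sensors start it. IRE1 splices the messenger RNA of XBP1, PERK phosphorylates eIF2 alpha and thereby raises translation of ATF4, and ATF6 is cut in the Golgi to release a transcription factor. XBP1 and ATF6 drive chaperones and the machinery of ER-associated degradation (ERAD), and ATF4 drives genes of amino acid supply together with Ddit3 (CHOP) and the pseudokinase gene Trib3. NFE2L1 is an ER-anchored factor that escapes ERAD and drives proteasome genes, and it is known from brown fat as a factor needed for heat production in the cold. The counts are of nuclear RNA per gene, so neither IRE1 splicing of Xbp1 nor any cleavage or phosphorylation was visible.

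Promoters of 4 members are shown because their letters hold the elements by which the UPR is known to reach its targets. The sequences were those of RefSeq on GRCm38.p6, from 250 bases before the annotated start to 30 bases from it, on the gene's own strand. They lay at chr2:34771840-34772119 on the plus strand for Hspa5 and at chr10:86705415-86705694 on the minus strand for Hsp90b1. Herpud1 lay at chr8:94386179-94386458 on the plus strand and Trib3 at chr2:152344031-152344310 on the minus strand. Capitals mark the ERSE and the UPRE core in Hspa5, the ERSE in Hsp90b1, the ERSE-II and the CARE in Herpud1 and the CARE in Trib3, each read on either strand.
Hspa5 promoter: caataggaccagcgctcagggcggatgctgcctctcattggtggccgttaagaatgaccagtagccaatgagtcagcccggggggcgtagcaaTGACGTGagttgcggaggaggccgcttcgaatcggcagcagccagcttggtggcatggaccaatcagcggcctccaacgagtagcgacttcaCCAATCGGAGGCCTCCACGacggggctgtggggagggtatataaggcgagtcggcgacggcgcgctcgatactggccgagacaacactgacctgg
Hsp90b1 promoter: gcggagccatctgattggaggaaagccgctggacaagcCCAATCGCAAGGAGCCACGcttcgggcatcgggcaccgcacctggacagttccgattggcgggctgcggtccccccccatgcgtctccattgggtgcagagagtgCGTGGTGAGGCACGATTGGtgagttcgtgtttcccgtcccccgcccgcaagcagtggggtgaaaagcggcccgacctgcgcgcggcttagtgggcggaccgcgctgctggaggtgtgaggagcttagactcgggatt
Herpud1 promoter: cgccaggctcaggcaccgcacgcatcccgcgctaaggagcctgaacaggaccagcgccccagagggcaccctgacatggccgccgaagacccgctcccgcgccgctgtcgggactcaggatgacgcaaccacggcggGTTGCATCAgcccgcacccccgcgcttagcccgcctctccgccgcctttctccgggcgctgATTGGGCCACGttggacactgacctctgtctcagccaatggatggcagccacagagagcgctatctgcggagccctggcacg
Trib3 promoter: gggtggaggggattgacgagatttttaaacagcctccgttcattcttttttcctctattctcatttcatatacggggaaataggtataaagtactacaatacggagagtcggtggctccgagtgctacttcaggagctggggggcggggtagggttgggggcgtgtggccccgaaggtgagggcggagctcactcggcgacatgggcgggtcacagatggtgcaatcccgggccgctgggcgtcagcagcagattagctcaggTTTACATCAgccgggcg

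The ER stress element ERSE, to which ATF6 is recruited with NF-Y, was searched as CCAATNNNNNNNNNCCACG on both strands of 300-base windows of 27025 genes. It was present in 37 genes (0.137%), among them Hspa5 at -65 to -47 from the start and Hsp90b1 at 2 places, -212 to -194 and, in the reverse orientation, -107 to -89. The ERSE-II, ATTGGNCCACG, was present in 12 genes (0.0444%), among them Herpud1 at -52 to -42. The UPRE core TGACGTG, known from XBP1 and ATF6 binding, was present in 601 genes (2.22%), among them Hspa5 and Nfe2l1. The CARE, TGATGNAAN, at which ATF4 pairs with C/EBP proteins, was present in 1215 genes (4.50%), among them Trib3 and Herpud1. The antioxidant response element core TGACNNNGC, at which NFE2L1 pairs with small MAF proteins, was present in 3781 genes (14.0%), among them Herpud1, where it is not capitalised. CCACG alone, which is part of both ERSE forms, was present in 9589 genes (35.5%), among them 6 of the 9 members with a promoter entry; Atf6 was not matched. A match describes letters and not a bound site.

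The total was 14971579 unique molecular identifiers (UMIs) in the untreated, 14725864 in the sham and 9420030 in the denervated library, and 9980, 11322 and 9387 nuclei were kept. Nuclei were grouped by clusters and named from marker lists as brown adipocyte-like (BA-like), endothelial-like (EC-like) or pericyte-like, with 4629, 2643 and 4898 BA-like nuclei in the untreated, sham and denervated library. Ucp1, the uncoupling protein of brown fat, stood at 348, 412 and 315 UMIs per 1000000 UMIs (CPM) in BA-like nuclei of the untreated, sham and denervated library, against 75.2, 69.1 and 140.1 CPM in EC-like nuclei. The summed brown adipocyte marker list in EC-like nuclei came to 757, 715 and 2611 CPM, so more adipocyte RNA lay in the EC-like nuclei of the denervated library. Median depth also differed, at 1820, 1453 and 894 UMIs for BA-like and 626, 501 and 376 UMIs for EC-like nuclei. The sham library stood apart in BA-like nuclei, with 17.8% of genes called higher and 16.1% called lower than untreated, against 5.36% and 3.9% for denervated over untreated. The sham library also had the most mitochondrial UMIs, 12.9% against 6.71% in the untreated and 2.95% in the denervated library. The barcodes were index numbers, and 251 to 278 of them recurred between any pair of libraries. The immediate early gene list was higher in EC-like than BA-like nuclei, at 2818, 2981 and 4120 against 748, 526 and 847 CPM in the untreated, sham and denervated library, and its part in the class differences was not tested.

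A gene was called higher or lower where its CPM, averaged over both sides, was at least 20, the difference was at least 1.5-fold and the exact 95% interval of the log2 ratio left out 0. These intervals, and all others given here, cover counting error only. Levels of a gene are given in CPM of the summed nuclei of a class, and differences as log2 ratios of CPM. In all, 18290, 14257 and 10871 member UMIs lay in the kept nuclei of the untreated, sham and denervated library.

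Neither of the 2 ER chaperones among the members was called higher in BA-like than EC-like nuclei. Hspa5 (BiP, the main HSP70 of the ER and the repressor of the stress sensors; chr2:34771970-34777547) stood at 214, 156 and 207 CPM in BA-like nuclei of the untreated, sham and denervated library. In EC-like nuclei it stood at 207, 189.7 and 285 CPM and in pericyte-like nuclei at 307, 298 and 155 CPM. The pericyte-like level was thus highest in the untreated and sham libraries and lowest in the denervated one, where the value rested on 59 UMIs. Between BA-like and EC-like nuclei Hspa5 did not differ beyond counting error in the untreated library, with a log2 ratio of 0.05 (-0.08 to 0.18). The ratio was -0.28 (-0.45 to -0.11) in sham and -0.46 (-0.64 to -0.28) in denervated BAT, neither of them past 1.5-fold. The denervated ratio of Hspa5 went past 1.5-fold in 5 of 10 alternatives, down to -1.38 with ambient RNA subtracted, which takes from each class the profile of barcodes under the minimum of 200 detected genes.

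Hsp90b1 (GRP94, the HSP90 of the ER; chr10:86690209-86705509) was lower in BA-like nuclei than in both vascular classes in each library. It stood at 252.5, 277 and 286.5 CPM in BA-like nuclei of the untreated, sham and denervated library. In EC-like nuclei the values were 486, 408 and 547 CPM and in pericyte-like nuclei 421, 414.5 and 510 CPM, so no BA-like value reached a vascular one. White adipocyte-like nuclei held Hsp90b1 at 411 CPM (318 to 522) in the untreated and 517 CPM (470 to 568) in the denervated library. An adipocyte cluster of sham that met no name held 350 CPM (326 to 375.5). The low level was therefore not shared by all adipocyte clusters. BA-like over EC-like, the log2 ratio was -0.94 (-1.04 to -0.85), -0.56 (-0.68 to -0.44) and -0.93 (-1.07 to -0.80), called lower in the untreated and denervated libraries and short of 1.5-fold in sham. With only UMIs outside the mitochondrial genome counted, the sham ratio of Hsp90b1 was -0.63 and was called. Over 10 alternatives that ratio ran from -0.74 to -0.25 and was past 1.5-fold in 3. A pseudogene, 1810014B01Rik, lies opposite the gene, and whether the counting used strand was not given in the sources used here.

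**Figure D1:**
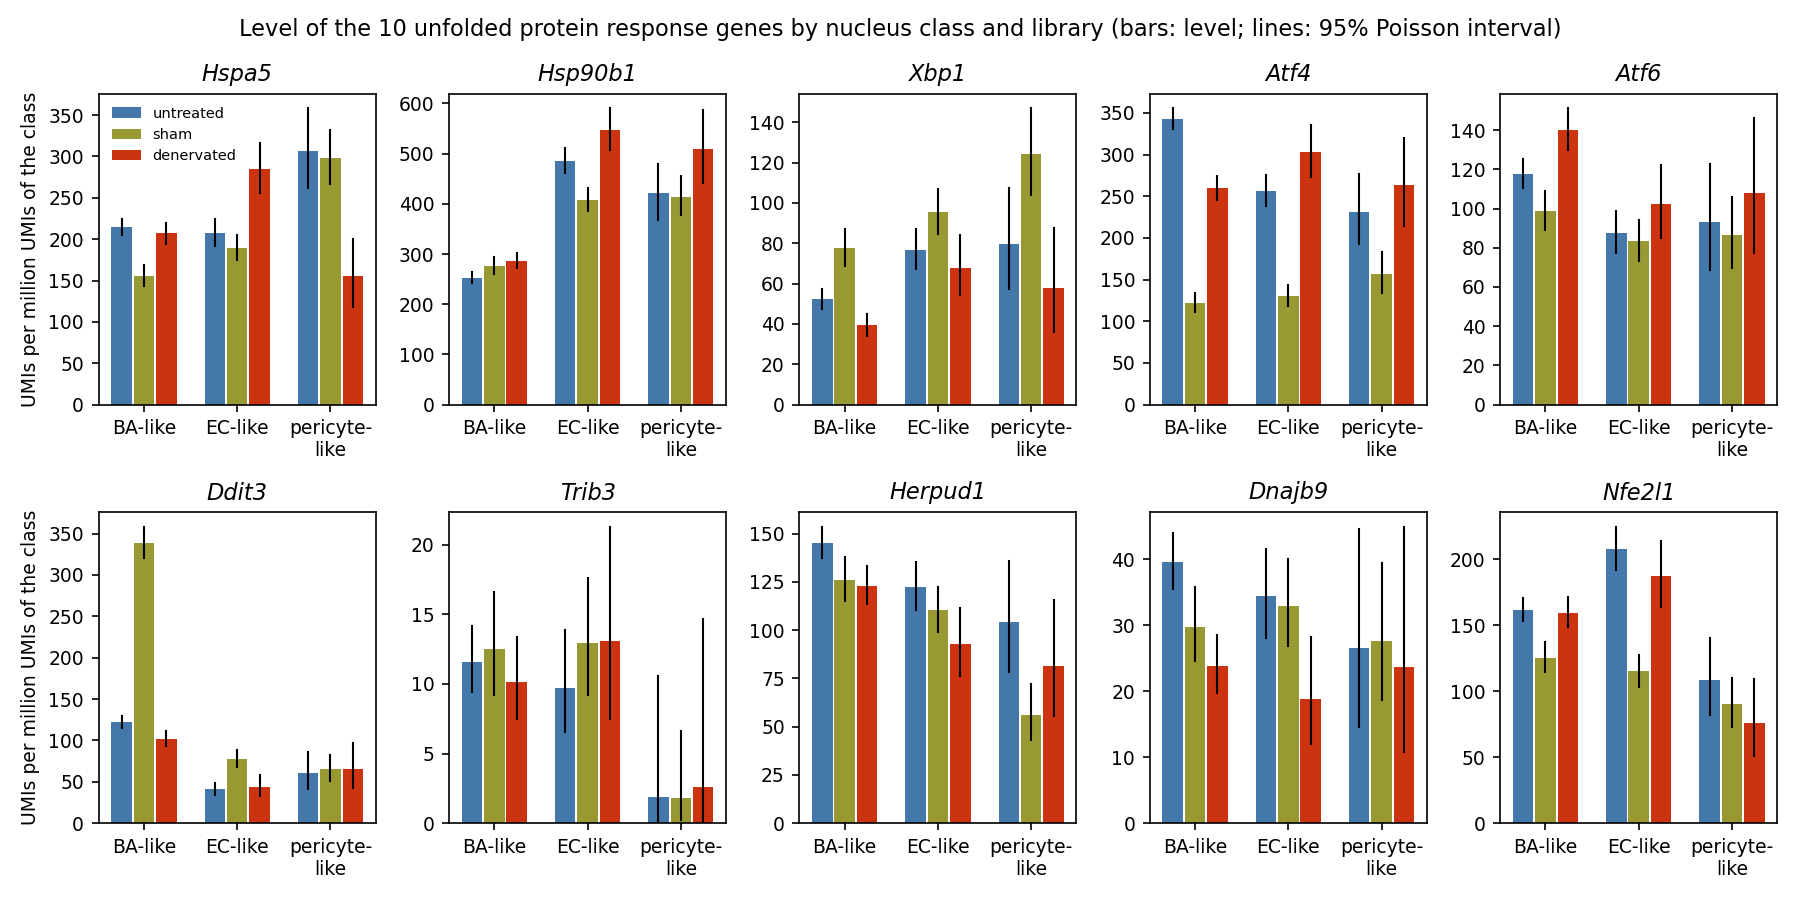
Level of each of the 10 genes in CPM (vertical axes, each from 0) in BA-like, EC-like and pericyte-like nuclei of the untreated (blue), sham (olive) and denervated (red) library; bars are levels and lines are exact 95% Poisson intervals. Hsp90b1 bars of BA-like nuclei, 252.5 to 286.5, sit below all vascular bars, and the sham bar of Ddit3 in BA-like nuclei, 339, stands above all others of that gene.

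The transcription factors did not share one pattern. Xbp1, the target of IRE1 (chr11:5520659-5525893), stood at 52.2, 77.5 and 39.3 CPM in BA-like nuclei of the untreated, sham and denervated library. In EC-like nuclei it stood at 76.5, 95.3 and 68.0 CPM and in pericyte-like nuclei at 79.6, 124 and 57.8 CPM. Of these 3 classes BA-like nuclei were lowest in each library, and EC-like and pericyte-like intervals overlapped in all 3 libraries. BA-like over EC-like, the log2 ratio was -0.55 (-0.78 to -0.32), -0.30 (-0.54 to -0.06) and -0.79 (-1.17 to -0.40), called lower in the denervated library. The ratio of Xbp1 in sham ran from -0.52 to 0.35 over the alternatives, so its direction there was not stable.

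Atf4 (chr15:80255184-80257541), whose protein is made mainly when eIF2 alpha is phosphorylated, stood at 343, 122 and 260 CPM in BA-like nuclei of the untreated, sham and denervated library. In EC-like nuclei it stood at 256, 130.2 and 303 CPM and in pericyte-like nuclei at 231, 157 and 263 CPM. The sham library held the lowest value in all 3 classes, and the order of the classes changed from library to library. BA-like over EC-like, the log2 ratio was 0.42 in the untreated library, -0.10 (-0.29 to 0.10) in sham and -0.22 in the denervated library.

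Atf6 (chr1:170704674-170867771), the Golgi-cleaved sensor, stood at 118, 98.7 and 140.2 CPM in BA-like nuclei of the untreated, sham and denervated library, with 87.5, 83.4 and 102 CPM in EC-like and 92.9, 86.4 and 108 CPM in pericyte-like nuclei. Of these 3 classes it was highest in BA-like nuclei each time as summed. Immune-like nuclei stood higher, at 229, 250 and 260 CPM from 14, 15 and 39 UMIs, as did the white adipocyte-like nuclei given further on. The log2 ratio over EC-like nuclei was 0.43 (0.23 to 0.63), 0.24 (0.01 to 0.48) and 0.45 (0.18 to 0.74), below 1.5-fold as computed here. Over 10 alternatives the denervated ratio of Atf6 ran from -0.01 to 1.101, past 1.5-fold in 3, and with ambient RNA subtracted the sham ratio turned to -0.29. Against pericyte-like nuclei all 3 intervals held 0.

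Nfe2l1 (chr11:96817414-96829968) stood at 161.5, 125 and 159.5 CPM in BA-like nuclei of the untreated, sham and denervated library. In EC-like nuclei it stood at 208, 115 and 188 CPM and in pericyte-like nuclei at 108, 90.1 and 76.2 CPM. Of these 3 classes pericyte-like nuclei were lowest in each library. The log2 ratio of Nfe2l1 in BA-like over pericyte-like nuclei was 0.58, 0.48 and 1.065, with intervals above 0 in all 3. Against EC-like nuclei its log2 ratio was -0.36 (-0.50 to -0.23), 0.12 (-0.08 to 0.33) and -0.23 (-0.45 to -0.02), with an interval that held 0 in sham and values short of 1.5-fold in the others. The sham EC-like level of Nfe2l1, 115 CPM, was close to the 108.1 CPM in sham barcodes under the gene minimum. With ambient RNA subtracted the ratios over EC-like nuclei were -0.78, 3.01 and -1.66, so this comparison of Nfe2l1 rests on how ambient RNA is treated.

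Ddit3 was the 1 member called higher in BA-like than in EC-like and pericyte-like nuclei of every library. Of all genes, 21.5% were called higher over EC-like and 16.6% over pericyte-like nuclei in all 3 libraries. Ddit3 (chr10:127290774-127296288) codes for CHOP, the C/EBP-family factor that the PERK arm induces under lasting ER stress. It stood at 122, 339 and 102 CPM in BA-like nuclei of the untreated, sham and denervated library. In EC-like nuclei it stood at 40.8, 77.9 and 44.2 CPM and in pericyte-like nuclei at 60.7, 65.25 and 65.7 CPM, all below every BA-like value. BA-like over EC-like, it was 2.99-fold, 4.36-fold and 2.30-fold higher, with log2 ratios of 1.58 (1.31 to 1.86), 2.12 (1.92 to 2.33) and 1.2 (0.79 to 1.63). BA-like over pericyte-like, the log2 ratios were 1.01 (0.50 to 1.56), 2.38 (2.03 to 2.74) and 0.63 (0.05 to 1.27). The denervated ratio rested on 25 pericyte-like UMIs and stayed past 1.5-fold in 6 of 10 alternatives, so that call was not stable. White adipocyte-like nuclei held Ddit3 at 129 CPM (79.7 to 197) in the untreated and 69.0 CPM (52.4 to 89.2) in the denervated library. An adipocyte cluster of sham that met no name held 228 CPM (209 to 249). Untreated fibroblast-like nuclei had 210 CPM (68.2 to 490) and sham immune-like nuclei 200 CPM (103 to 349), so Ddit3 was not particular to BA-like nuclei. A second gene model of the same name and, on the opposite strand, Mars and Gm4189 overlap the locus, and their part in the count was not tested.

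Thinning every nucleus to 500 UMIs, which takes the depth gap between the classes away, left the order of Ddit3 in place. Of the BA-like nuclei, 6.18% (5.49 to 6.92), 14.7% (13.4 to 16.2) and 4.49% (3.90 to 5.15) of the untreated, sham and denervated library then held a Ddit3 UMI. Of the EC-like nuclei, 1.71% (1.26 to 2.26), 2.83% (2.22 to 3.55) and 2.38% (1.42 to 3.73) held one. Without thinning the Ddit3 shares were 17.0%, 33.4% and 8.37% of BA-like and 2.38%, 3.93% and 1.97% of EC-like nuclei. The thinned set held 4485, 2519 and 4363 BA-like and 2804, 2511 and 757 EC-like nuclei, the rest being shallower. For comparison, Ucp1 UMIs were held by 14.0%, 16.9% and 11.9% of thinned BA-like nuclei and by 3.07%, 2.47% and 7.001% of thinned EC-like nuclei.

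Hspa5 thinned to the same depth was held by 9.32% (8.49 to 10.2), 7.22% (6.24 to 8.31) and 7.75% (6.97 to 8.58) of BA-like nuclei in the untreated, sham and denervated library. In EC-like nuclei the Hspa5 shares were 9.06% (8.02 to 10.2), 8.92% (7.83 to 10.1) and 13.6% (11.2 to 16.3). The intervals of the 2 classes lay apart in the denervated library and overlapped in the other two. In BA-like nuclei the denervated share of Hspa5 lay nearer to sham, while its CPM lay nearer to untreated, and at 800 UMIs the untreated and denervated shares were 14.2% and 14.7%, so no order of the libraries is read from them. Hsp90b1 was held by 11.8%, 12.03% and 13% of BA-like and 20.2%, 15.9% and 22.2% of EC-like nuclei, again the lower share in BA-like nuclei.

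Herpud1 (chr8:94386438-94395377), an ER membrane protein that gathers the ERAD complex, stood at 145, 126 and 123 CPM in BA-like nuclei of the untreated, sham and denervated library. In EC-like nuclei it stood at 122.5, 110.2 and 92.6 CPM and in pericyte-like nuclei at 104, 56.1 and 81.5 CPM, the lowest of these 3 classes each time. BA-like over EC-like, the log2 ratio was 0.24 (0.08 to 0.41), 0.19 (-0.01 to 0.40) and 0.41 (0.12 to 0.71). BA-like over pericyte-like, it was 0.48, 1.17 and 0.59 with intervals above 0 in all 3 libraries, called higher in sham and in the denervated library, where it stayed past 1.5-fold in 4 of 10 alternatives. An antisense gene, Gm15890, overlaps its start.

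Dnajb9 (ERdj4, the BiP co-chaperone that keeps IRE1 silent; chr12:44205559-44210326) was sparse, at 39.6, 29.8 and 23.9 CPM in BA-like, 34.4, 33.0 and 18.8 CPM in EC-like and 26.5, 27.6 and 23.7 CPM in pericyte-like nuclei of the untreated, sham and denervated library. No class ratio of Dnajb9 left out 0 in any library. Trib3 (chr2:152337422-152344032), the pseudokinase that ATF4 and CHOP induce, stood at 11.6, 12.5 and 10.1 CPM in BA-like and 9.72, 12.9 and 13.1 CPM in EC-like nuclei and was below the level needed for a call. In pericyte-like nuclei Trib3 had 1, 2 and 1 UMIs, so its level there was hardly measured.

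**Figure D2:**
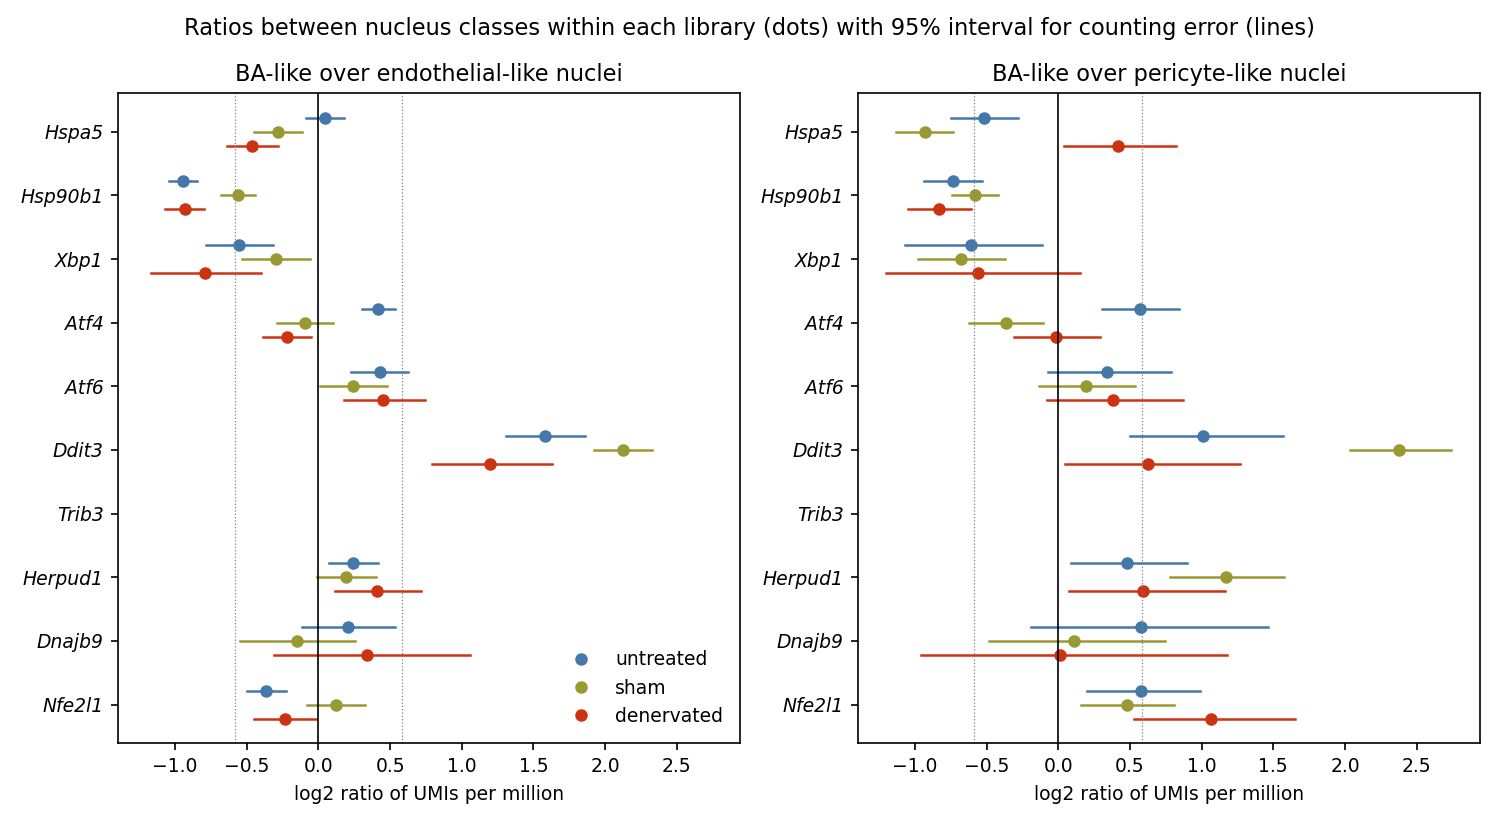
Log2 ratio of CPM in BA-like over EC-like (left) and over pericyte-like nuclei (right) for each member, with untreated in blue, sham in olive and denervated in red; lines are 95% intervals for counting error, dotted lines mark 1.5-fold, and Trib3 was below the level needed for a ratio. Ddit3 lies to the right of 0 in both panels, from 0.63 to 2.38, and Hsp90b1 to the left, from -0.94 to -0.56.

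Over the 9 members with enough UMIs, 1 was called higher and 1 lower in BA-like than EC-like nuclei of the untreated library, where 34.2% of all genes tested were higher and 28.1% lower. In sham 1 was higher and 0 lower, against 34.8% and 26.8% of all genes. In the denervated library 1 was higher and 2 were lower, against 25.9% and 25.1%. Each of these 6 counts rested on at most 2 of 9 members, so no difference from the share of all genes is read from them. With ambient RNA subtracted, 3 members were called higher and 6 lower in the denervated library, where 31.8% of all genes were higher and 33.8% lower. Of those 6, Trib3 had a BA-like level under 20 CPM and was tested through the EC-like side alone. Ddit3 was the member called higher over EC-like nuclei in all 3 libraries, as were 21.5% of all genes, and 0 members were called lower in all 3, as were 20.3%. Over pericyte-like nuclei Ddit3 was again the 1 member called higher in all 3 libraries, against 16.6% of all genes, and 0 were lower, against 18.8%. The denervated Ddit3 ratio over pericyte-like nuclei stayed past 1.5-fold in 6 of 10 alternatives and was 0.29 (-0.66 to 1.44) with nuclei thinned to 500 UMIs and summed, so this call was not stable.

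The wider pathway was read from lists of its genes, whose counts are to be set against all genes: 34.2%, 34.8% and 25.9% called higher and 28.1%, 26.8% and 25.1% called lower in BA-like than EC-like nuclei of the untreated, sham and denervated library. A gene with 1 class under 20 CPM could be tested only through the class where it was high, and a call on it carries no weight. Such genes made up 28.2%, 27.4% and 17.3% of all genes called higher and 38.95%, 42.95% and 39.4% of those called lower in the untreated, sham and denervated library. Of 20 chaperones and folding enzymes of the ER, 17, 17 and 16 had enough UMIs in the untreated, sham and denervated library. Of these, 10, 7 and 10 were called lower in BA-like than EC-like nuclei and 2, 3 and 3 higher, so that 58.8%, 41.2% and 62.5% were lower, of which 2, 4 and 2 genes had a BA-like level under 20 CPM. The median log2 ratio was -0.70, -0.56 and -0.63, where the median of all genes tested was 0.16, 0.14 and 0.07. Calr, Dnajc10, Manf, P4hb and Pdia3 were called lower in all 3 libraries, as were 20.3% of all genes, though BA-like Dnajc10 and Manf in sham and P4hb in the denervated library were under 20 CPM; genes given here as lower or higher in all 3 were picked after their values were seen. P4hb, a protein disulphide isomerase, stood at 20.25, 21.15 and 18.8 CPM in BA-like against 80.7, 65.9 and 76.2 CPM in EC-like nuclei of the untreated, sham and denervated library. Calr, the lectin chaperone calreticulin, stood at 86.8, 97.9 and 75.5 CPM against 224, 169 and 186 CPM. Both lay on the same side as Hsp90b1 in each library.

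Sil1 and Txndc11 went the other way and were called higher in BA-like nuclei in all 3 libraries, as were 21.5% of all genes. Sil1, the nucleotide exchange factor of BiP, stood at 209, 138 and 248 CPM in BA-like against 54.8, 41.7 and 120.4 CPM in EC-like nuclei of the untreated, sham and denervated library. Its log2 ratio was 1.93 (1.71 to 2.17), 1.72 (1.44 to 2.01) and 1.04 (0.80 to 1.30). Hyou1, a large HSP70 that also serves as a BiP exchange factor, had log2 ratios of 0.50, 0.85 and 0.59 and was called in sham, where its EC-like level was under 20 CPM, and denervated. Of the translocon and signal peptidase list, 7 of 13, 4 of 12 and 5 of 13 were lower in BA-like nuclei, 3, 0 and 1 of them with BA-like levels under 20 CPM, and 1, 2 and 1 higher, with medians of -0.65, -0.35 and -0.49. The shares lower were 53.8%, 33.3% and 38.5%, the sham one near that of all genes. Sec62, Sec63, Spcs2 and Ssr1 were lower in all 3 libraries and Ssr4 higher in all 3.

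Of ERAD genes other than the members, 3 of 18, 8 of 18 and 4 of 18 were higher in BA-like nuclei and 2, 3 and 2 lower in the untreated, sham and denervated library, with medians of 0.27, 0.53 and 0.18. The shares higher, 16.7%, 44.4% and 22.2%, were below that of all genes in the untreated and denervated libraries and above it in sham. Derl1, a channel subunit of the ERAD complex, stood at 248, 116 and 185 CPM in BA-like against 109.9, 62.7 and 109.7 CPM in EC-like nuclei. Erlec1, an ER lectin, stood at 51.6, 102 and 58.3 CPM against 29.2, 34.6 and 31.1 CPM. Derl1 and Erlec1 were higher in all 3 libraries, and Os9 was lower in all 3. Ube2g2 was called lower in all 3 as well, each time with a BA-like level under 20 CPM, so its calls carry no weight.

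Of the ATF4 target list, 7 of 13, 7 of 13 and 6 of 12 genes were higher in BA-like nuclei of the untreated, sham and denervated library and 2, 3 and 2 lower, with medians of 1.02, 0.67 and 0.45. The shares higher were 53.8%, 53.8% and 50%, but 3, 3 and 1 of these genes had an EC-like level under 20 CPM, which left 4, 4 and 5 higher. The 5 genes higher in all 3 libraries, as were 21.5% of all genes, were Aars, Atf5, Cebpb, Eif4ebp1 and Vldlr, and Wars was lower in all 3. EC-like levels were under 20 CPM for Vldlr and Eif4ebp1 in the untreated and for Atf5 and Eif4ebp1 in the sham library, as were BA-like levels of Wars in sham and denervated, so only Aars and Cebpb were higher with both classes at 20 CPM or more throughout. Vldlr, a lipoprotein receptor, stood at 119, 271 and 104 CPM in BA-like against 11.99, 23.3 and 29.5 CPM in EC-like nuclei. Cebpb, a factor of adipocyte differentiation, stood at 340, 263 and 324 CPM against 60.9, 51.1 and 132 CPM. Atf5, a factor of the mitochondrial stress response, stood at 198, 87.2 and 151 CPM against 51.5, 16.2 and 72.9 CPM. Vldlr and Cebpb are also known from fat cells, and Atf5 from mitochondria.

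In the list of NFE2L1 processing and its partners, 6 of 12, 4 of 11 and 5 of 12 were higher in BA-like nuclei and 1, 3 and 2 lower, with medians of 0.60, 0.27 and 0.22. The shares higher were 50%, 36.4% and 41.7%, the sham one near that of all genes. Ddi2, the protease that releases NFE2L1 from the ER, stood at 296, 372 and 258 CPM in BA-like against 158, 151 and 156 CPM in EC-like nuclei of the untreated, sham and denervated library. Ogt, a glycosyltransferase, and Mafg, a DNA-binding partner, were also higher in all 3, and Mafk, another partner, was lower in all 3, in sham with a BA-like level of Mafk under 20 CPM. Of 33 proteasome subunit genes, 10, 11 and 2 were higher and 2, 1 and 4 lower, with medians of 0.34, 0.43 and -0.01. The shares of proteasome genes higher, 30.3%, 33.3% and 6.06%, were at or below those of all genes. The lists of stress sensors and of eIF2 alpha kinases were mixed. Of 8, 8 and 7 sensor genes 1, 1 and 2 were higher and 2, 3 and 1 lower, and of 6 kinase and phosphatase genes 1, 1 and 1 were higher and 2, 1 and 2 lower. Among the latter Ppp1r15a was lower in all 3 libraries, as were 20.3% of all genes. Its untreated BA-like clusters stood at 19.55 and 16.8 CPM, both under 20 CPM, so its untreated call carries no weight. Calls with 1 class under 20 CPM were left in the counts of the sensor, kinase, NFE2L1, proteasome and ERAD lists. The brown marker sum in EC-like nuclei was highest in the denervated library, and its part in the ratios of these lists was not tested.

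**Figure D3:**
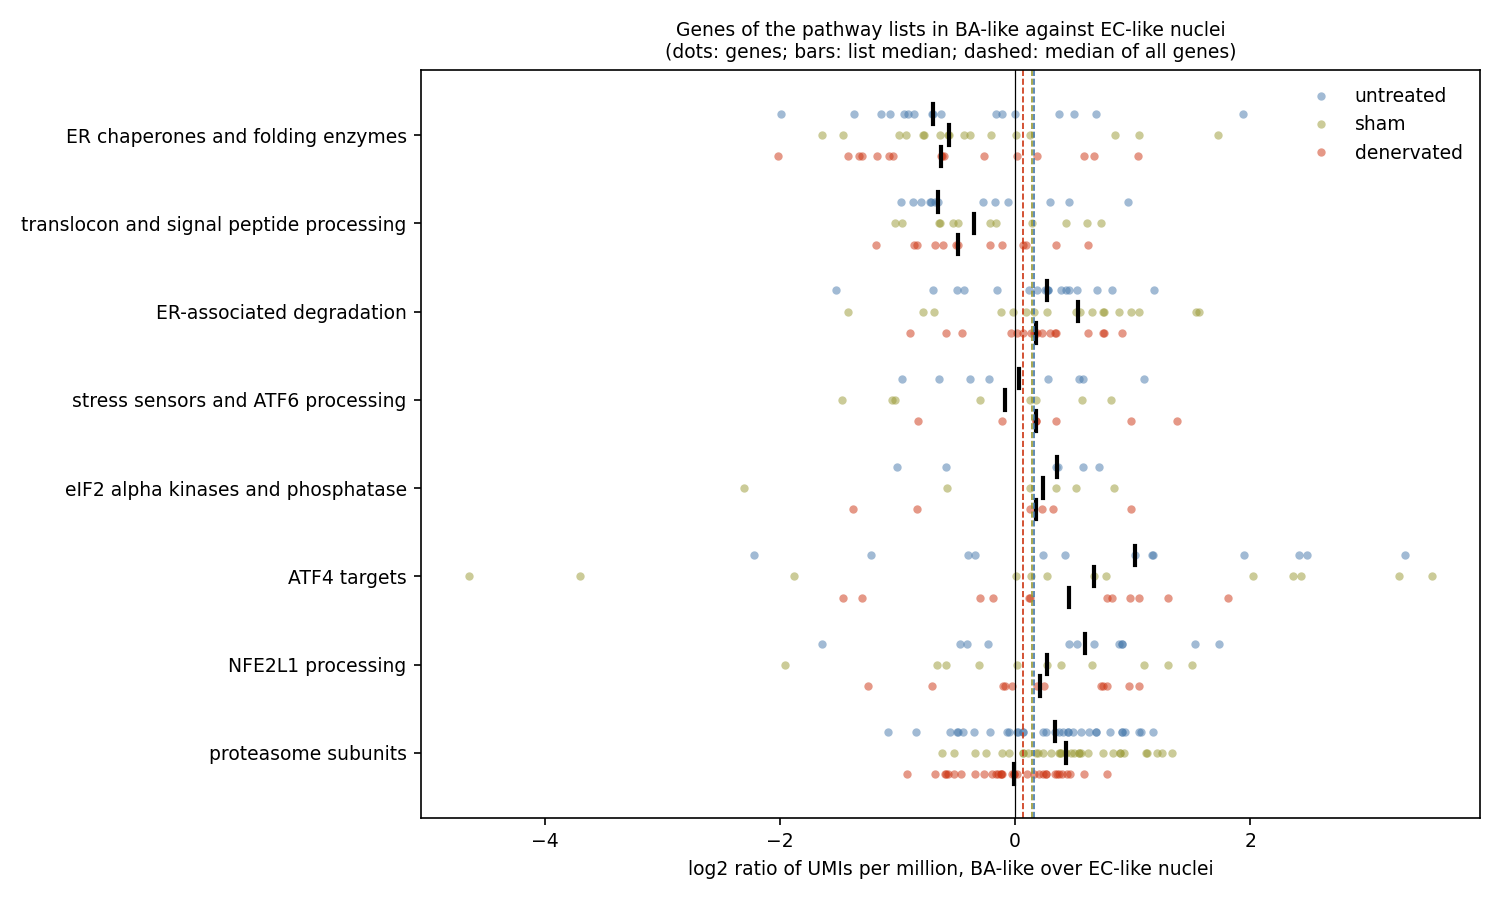
Log2 ratio of CPM in BA-like over EC-like nuclei (horizontal axis) for each tested gene of 8 pathway lists, with untreated in blue, sham in olive and denervated in red; short black bars are list medians and dashed lines the medians of all genes. Medians of the chaperone list lie at -0.70, -0.56 and -0.63 and those of the ATF4 target list at 1.02, 0.67 and 0.45.

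Denervation was compared with no treatment within each class, to ask whether loss of nerve supply went with a change of these genes. In BA-like nuclei 0 of 9 members were called higher and 1 lower, where 5.36% of all genes tested were higher and 3.9% lower. Dnajb9 was that member, at 23.9 CPM after denervation and 39.6 CPM without treatment, a log2 ratio of -0.73 (-1.04 to -0.42). Against the sham library, at 29.8 CPM, the ratio of Dnajb9 was -0.32 (-0.70 to 0.07) and held 0. With nuclei thinned to 500 UMIs before summing, the ratio over untreated was -0.28 (-0.83 to 0.27) and the call was lost. Hspa5 differed by a log2 ratio of -0.05 (-0.16 to 0.06) and Nfe2l1 by -0.02 (-0.15 to 0.11), so neither differed beyond counting error. Atf4 (-0.40), Xbp1 (-0.41), Ddit3 (-0.27) and Herpud1 (-0.24) had intervals below 0 and Hsp90b1 (0.18) and Atf6 (0.25) intervals above 0, each under 1.5-fold.

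The sham library gave other answers for the same BA-like nuclei. Denervated over sham, Atf4 was called higher with a log2 ratio of 1.09 (0.94 to 1.25), and Ddit3 lower with -1.74 (-1.89 to -1.59) and Xbp1 lower with -0.98 (-1.25 to -0.72). That is 1 of 9 members higher and 2 lower, where 17.6% of all genes were higher and 19.9% lower. Sham over untreated, Ddit3 was higher with 1.47 (1.36 to 1.59) and Atf4 lower with -1.49 (-1.64 to -1.35), where 17.8% of all genes were higher and 16.1% lower. The comparisons share their libraries, and the Atf4 and Ddit3 levels of the denervated library lay nearer to the untreated than to the sham library. The summed heat shock list stood at 4265, 2638 and 4806 CPM in BA-like nuclei of the untreated, sham and denervated library, lowest in sham, and its part in these ratios was not tested. The untreated BA-like class held a heat shock-led cluster of 567 nuclei, while the heat shock-rich adipocytes of sham (1732 nuclei) and a white-like cluster of the denervated library (936 nuclei) stood outside BA-like, so the classes compared were not made of like clusters.

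In EC-like nuclei Dnajb9 was likewise the 1 member called lower in denervated than untreated BAT, with -0.87 (-1.58 to -0.21) from 23 and 106 UMIs, and 0 were higher, where 17.8% of all genes were higher and 8.58% lower. The denervated level of Dnajb9, 18.8 CPM, was under 20 CPM, and the gene reached the mean needed for a call through the other library, over untreated and over sham alike, so both calls of Dnajb9 carry no weight. Hspa5 stood at 285 against 207 CPM, a log2 ratio of 0.46 (0.27 to 0.65), short of 1.5-fold but past it in 4 of 11 alternatives, up to 1.38 with ambient RNA subtracted. Denervated over sham, Hspa5 (0.59), Atf4 (1.22) and Nfe2l1 (0.71) were higher and Ddit3 (-0.82) and Dnajb9 (-0.81) lower, where 21.4% of all genes were higher and 12.3% lower. Sham over untreated, Ddit3 (0.93) was higher and Atf4 (-0.98) and Nfe2l1 (-0.85) lower, where 9.46% were higher and 10.7% lower. With at least 500 genes detected per nucleus, the ratio of Ddit3 denervated over sham was 0.03 and the call was lost. That of Hspa5 denervated over sham stayed past 1.5-fold in 6 of 11 alternatives, with a lowest value of 0.48. The ratio of Nfe2l1 in EC-like nuclei ran from 0.41 to 5.01 denervated over sham and from -4.203 to -0.59 sham over untreated, with 5.01 and -4.203 reached where ambient RNA was subtracted. Atf4 was thus lower and Ddit3 higher in the sham library in both large classes.

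In pericyte-like nuclei Hspa5 was the 1 member called lower in denervated than untreated BAT, with -0.99 (-1.44 to -0.55) from 59 and 162 UMIs, and 0 were higher, where 9.96% of all genes were higher and 8.19% lower. Denervated over sham, Atf4 (0.74) was higher and Hspa5 (-0.94) and Xbp1 (-1.10) lower, where 14.2% were higher and 12.7% lower. Sham over untreated, Xbp1 (0.64) was higher and Herpud1 (-0.90) lower, where 7.83% were higher and 7.65% lower. With at least 500 genes detected per nucleus, the ratios of Hspa5 in the denervated library were -0.53 over untreated and -0.43 over sham, and both calls were lost. The brown marker sum of pericyte-like nuclei was 760, 528.5 and 1703.5 CPM in the untreated, sham and denervated library, and its part in these differences was not tested. A smooth muscle-like class was named in the sham library alone, with 355 nuclei. The pericyte-like classes may thus not be alike in make-up, and this was not tested either.

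**Figure D4:**
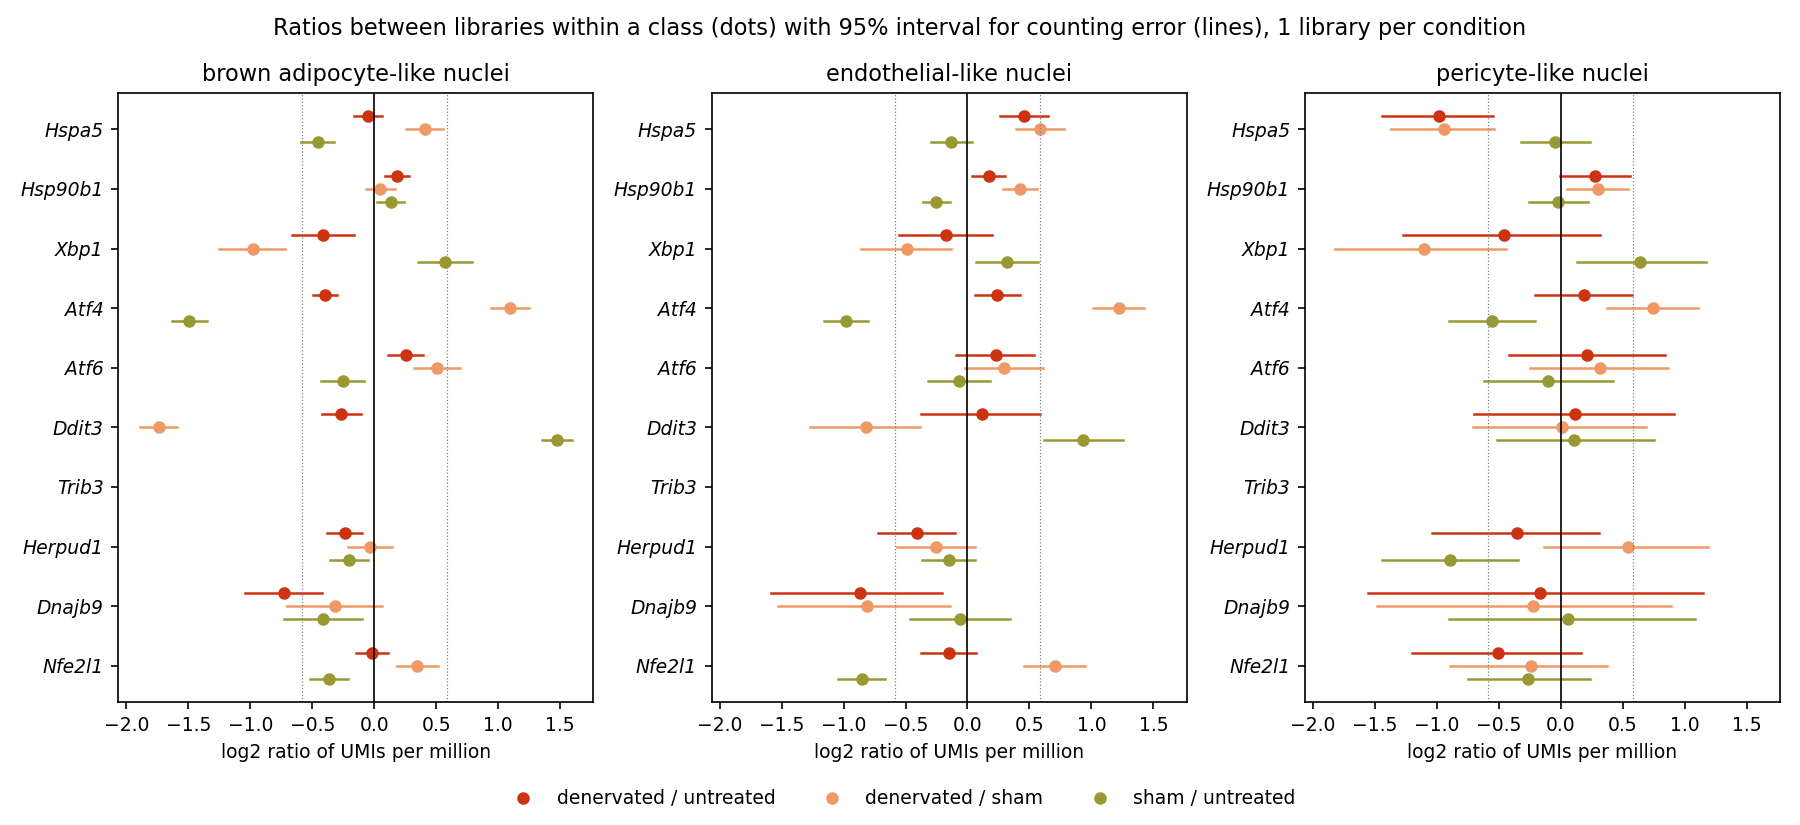
Log2 ratio of CPM between libraries (horizontal axes) for each member in BA-like (left), EC-like (middle) and pericyte-like nuclei (right): denervated over untreated in red, denervated over sham in orange and sham over untreated in olive, with 95% intervals for counting error and dotted lines at 1.5-fold. In BA-like nuclei the red dots lie between -0.73 and 0.25, while the ratios against sham reach -1.74 for Ddit3 and 1.09 for Atf4.

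Among the wider lists in BA-like nuclei, denervated over untreated gave 0 calls in either direction for the stress sensor, chaperone, ERAD, translocon and eIF2 alpha kinase lists, with 7, 14, 17, 10 and 5 genes tested, where 5.36% of all genes were higher and 3.9% lower. Denervated over sham, the same lists had 2 of 7, 3 of 13, 1 of 17, 1 of 11 and 1 of 5 genes higher and 3 ERAD genes lower, where 17.6% of all genes were higher and 19.9% lower, and 1 of those sensor and 1 of those chaperone genes had a sham level under 20 CPM. The medians over untreated were 0.16, -0.06, -0.07, -0.20 and 0.16, where that of all genes was -0.02. Eif2ak3, which codes for PERK, stood at 91.1 CPM after denervation against 66.2 CPM without treatment and 57.95 CPM in sham. Its log2 ratio was 0.46 (0.28 to 0.64) over untreated and 0.65 (0.42 to 0.89) over sham, of which the latter was called. Of 13 ATF4 targets 2 were lower, Nupr1 and Slc3a2, a share of 15.4% beside 3.9% of all genes, from 2 genes. Denervated over sham, 2 of 11 were higher (18.2%) and 3 lower (27.3%), where 17.6% of all genes were higher and 19.9% lower. Aldh18a1 went the other way, with log2 ratios of 0.38 (0.05 to 0.70) over untreated and 0.70 (0.28 to 1.14) over sham. Nupr1, a stress-induced chromatin protein, stood at 21.85 CPM after denervation, 34.6 CPM without treatment and 71.3 CPM in sham. Slc3a2, the heavy chain of amino acid transporters, stood at 41.1, 61.8 and 50.6 CPM in the same order. Its log2 ratio over sham was -0.30 (-0.59 to -0.01), short of 1.5-fold.

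Mafk, a small MAF partner of NFE2L1, was the 1 gene of 12 in the NFE2L1 list called higher after denervation, a share of 8.33% beside 5.36% of all genes. It stood at 41.7 CPM in BA-like nuclei of the denervated, 20.01 CPM of the untreated and 9.14 CPM of the sham library, with a log2 ratio of 1.06 (0.76 to 1.36) over untreated. The untreated level of Mafk was 44.7 CPM in the heat shock-led BA-like cluster and 17.7 CPM, under 20 CPM, in the other. The sham level of Mafk was under 20 CPM, and its call over sham, reached through the denervated library, carries no weight. Mafk was higher in EC-like than BA-like nuclei of each library, at 99.1 CPM in the denervated one. Of 33 proteasome genes 0 were higher and 2 lower after denervation, a share lower of 6.06% beside 3.9% of all genes. Psma1, a ring subunit, was lower against both libraries, at 55.65 CPM against 86.7 CPM in untreated and 89.0 CPM in sham. Psmd2, a base subunit of the regulatory particle, stood at 87.0 CPM against 60.3 and 45.95 CPM, a log2 ratio of 0.53 over untreated that stayed under 1.5-fold.

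Within the adipocytes the members also differed between clusters, which were made from the same counts and are given as a description. Outside the BA-like nuclei stood a white adipocyte-like cluster in the untreated (114 nuclei) and denervated library (936 nuclei) and a cluster of 1732 sham nuclei that met no name. The summed cytosolic heat shock list in those clusters came to 11544.5, 16549 and 24837 CPM in that order, against 4265, 4806 and 2638 CPM in the BA-like nuclei of their libraries. Among the untreated BA-like nuclei, 1 cluster of 567 nuclei was also led by heat shock genes, with Hspa1a at 3676 CPM against 149.8 CPM in the other 4062.

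Herpud1 was low in each of these clusters. It stood at 49.1 CPM (21.2 to 96.6) in the untreated and 42.8 CPM (29.98 to 59.3) in the denervated white-like cluster, 55.5 CPM (46.1 to 66.3) in the unnamed sham cluster and 68.4 CPM (50.6 to 90.5) in the heat shock-led BA-like one. The remaining BA-like clusters of at least 100 nuclei held Herpud1 at 152, 126 and 123 CPM in the untreated, sham and denervated library, above all 4 intervals. Xbp1 stood the other way in the white-like and unnamed clusters, at 141, 155 and 96.3 CPM for untreated, sham and denervated against 54.6, 77.5 and 38.6 CPM in the BA-like ones, but at 26.5 CPM in the heat shock-led cluster. Atf6 in white-like nuclei was 239 and 212 CPM in the untreated and denervated library against 116 and 140.4 CPM in BA-like ones. In the unnamed sham cluster Atf6 stood at 104 CPM (90.7 to 118), overlapping the 98.7 CPM (89.0 to 109) of sham BA-like nuclei. Of all genes tested, 32.2% were lower and 17.2% higher in denervated white-like than BA-like nuclei. In the unnamed sham cluster 22.4% were lower and 10% higher than in sham BA-like nuclei. In the heat shock-led cluster 10.7% were lower and 4.1% higher than in the other untreated BA-like cluster.

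Dnajb9 stood at 80.1 CPM in the unnamed sham cluster and 69.8 CPM in the heat shock-led cluster. The sham BA-like nuclei held 29.8 CPM of Dnajb9 and the other untreated BA-like cluster 36.8 CPM. In the untreated white-like cluster Dnajb9 was 55.2 CPM (25.2 to 104.7), an interval that held the level of that BA-like cluster. In the denervated white-like cluster it was 28.5 CPM (18.3 to 42.5), overlapping the BA-like level of 23.9 CPM. Hspa5 itself stood at 176 CPM in the heat shock-led and 218 CPM in the other untreated BA-like cluster, and at 226 against 156 CPM in the unnamed sham cluster and BA-like nuclei. Whether heat shock or handling of the tissue, which included enzyme digestion before nuclei were isolated, had a part in these values was not tested.

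**Figure D5:**
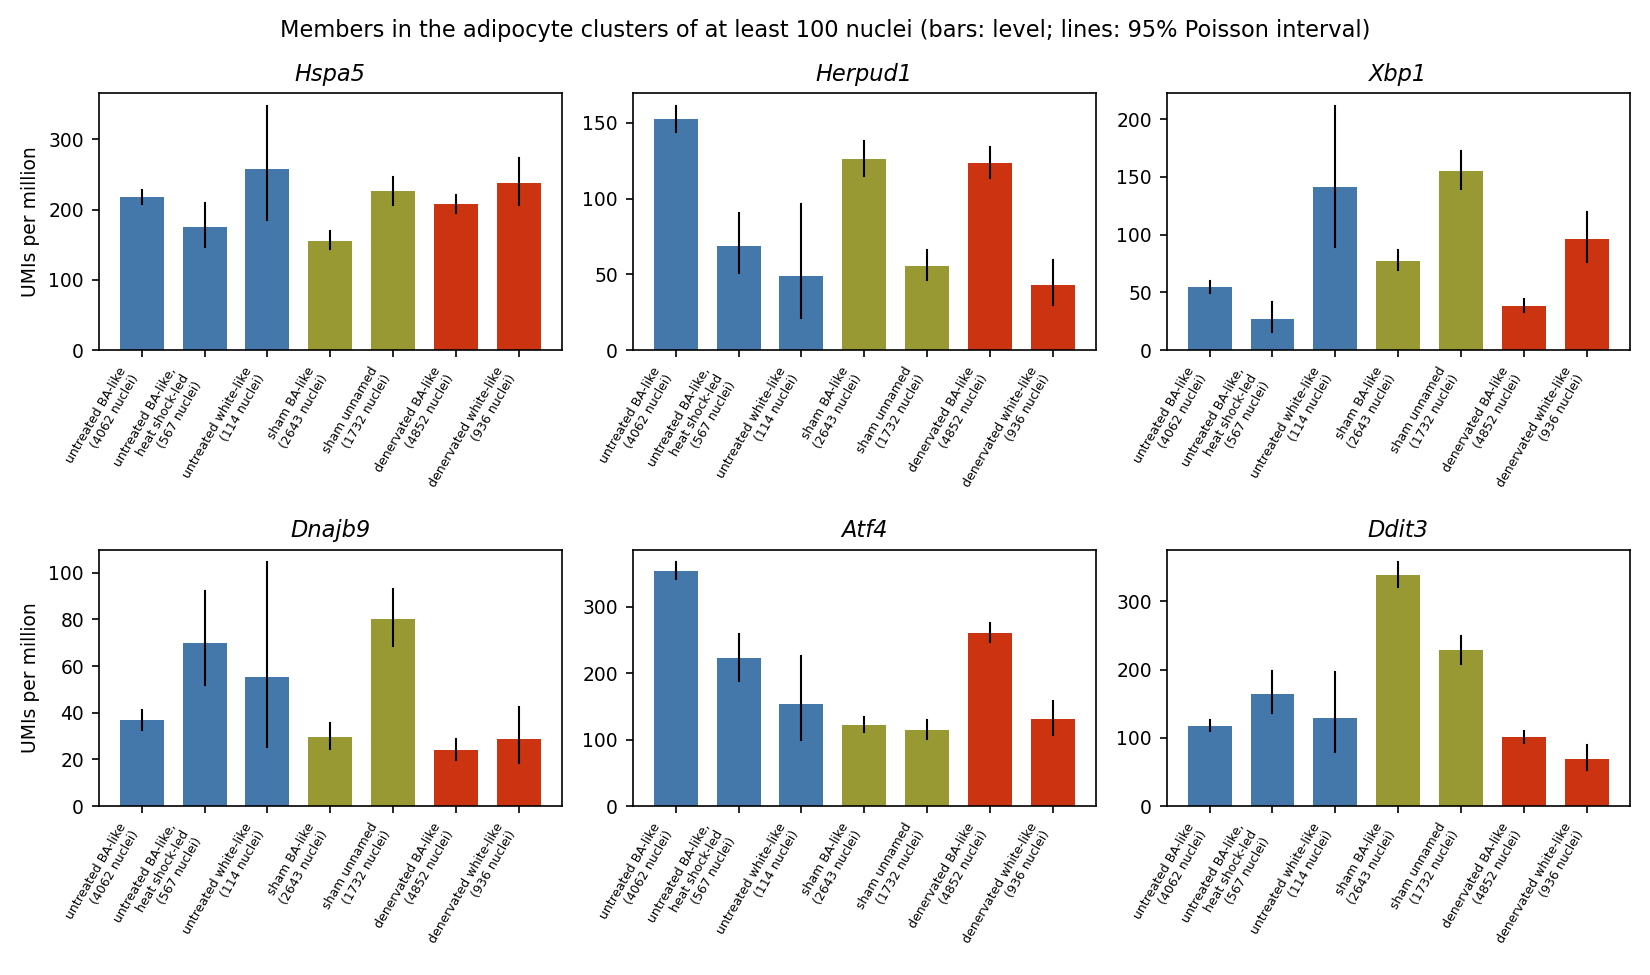
Level of 6 members in CPM (vertical axes, each from 0) in the adipocyte clusters of at least 100 nuclei, coloured by library as untreated in blue, sham in olive and denervated in red; lines are exact 95% Poisson intervals. Herpud1 stands at 123 to 152 in the main BA-like clusters and at 42.8 to 68.4 in the others, and Dnajb9 is highest in the unnamed sham cluster at 80.1.

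The rarer classes had few UMIs of these genes. In the untreated library Hspa5 stood at 882 CPM (546 to 1348) from 21 UMIs of 27 fibroblast-like nuclei and 775 CPM (443 to 1259) from 16 UMIs of 26 Schwann-like nuclei, above the BA-like interval of 205 to 224. In the sham and denervated libraries fibroblast-like Hspa5 was 388 CPM (194 to 695) and 191 CPM (87.4 to 363). The sham value also lay above its BA-like interval of 144 to 169, and the denervated interval overlapped that of BA-like nuclei. Schwann-like Hspa5 was 262 CPM (164 to 396) in sham and 595 CPM (340 to 966) in the denervated library. Hsp90b1 in fibroblast-like nuclei was 1092, 741 and 1019 CPM in the untreated, sham and denervated library, with every lower limit above the BA-like intervals. Fibroblasts secrete much matrix protein and are known for a large ER.

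Whether BA-like nuclei with Hspa5 also held more of the other members was read within each library at 500 UMIs per nucleus, where 418, 182 and 338 nuclei held a Hspa5 UMI and 4067, 2337 and 4025 did not. In the untreated library 0 of 8 members were called higher or lower, where 2.32% of all genes were higher and 1.38% lower. In sham 2 members were higher and 0 lower, where 2.42% and 1.29% were. These were Atf6, with a log2 ratio of 1.43 (0.70 to 2.10), and Trib3, with 1.95 (0.34 to 3.32) from 6 and 20 UMIs. Trib3 stood at 17.1 CPM in the nuclei without Hspa5 and reached the 20 CPM needed for a call through the nuclei with it alone, so its call carries no weight. In the denervated library 1 was higher, Herpud1 with 0.76 (0.15 to 1.31), and 0 lower, where 3.08% and 1.63% were. Atf6 was not called outside sham, and Trib3 was too sparse there. All 3 calls were lost with thinning to 800 UMIs, with no thinning and with finer clustering, and 0 members were called in every library.

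Across the 9 combinations of class and library, the genes whose log2 CPM ran most like that of Hspa5 among 4776 genes were Rab18 (Pearson r of 0.91), Klc1 (0.87), Bub3 (0.86), Sem1 (0.85) and Snx12 (0.85). Rab18 codes for a small GTPase of ER and lipid droplets, Klc1 for a kinesin light chain, Bub3 for a spindle checkpoint protein, Sem1 for a small proteasome subunit and Snx12 for a sorting nexin. Among the 7 other members ranked, which leaves out Trib3 and Dnajb9 as under the 50 CPM minimum, Xbp1 came nearest, with r of 0.33 at rank 1145, and Ddit3 lay farthest, with -0.54. The 9 points come from 3 libraries, share depth within them and are given as a description.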

How the data were processed

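Single nuclei of interscapular BAT had been profiled with BD Rhapsody whole transcriptome chemistry, 1 library per condition. By the study's methods the BAT was first digested with collagenase, dispase and trypsin under shaking. Nuclei were then taken from the floating layer of adipocytes and vessel fragments, so the levels are not those of undigested tissue or of all BAT nuclei. The methods do not name the sham library. The authors deposited raw UMI counts per gene and barcode, after error correction of UMIs by the BD WTA Rhapsody Analysis Pipeline, before removal of debris, ambient RNA and doublets. Per the file headers, version 1.9 with GRCm38 and GENCODE vM19 made the untreated and denervated tables. The sham table has no header, and the labels name a human build. The submitters' processing notes name Seurat 4.0.6. The later cleaning by the authors was not repeated.

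Barcodes under 200 genes or over 50% mitochondrial UMIs were dropped. A nucleus was removed as a doublet where markers of 2 classes that exclude each other each had 3 or more UMIs and the lesser total reached 25% of the greater (15.4%, 19.3% and 10.3% of the untreated, sham and denervated nuclei). Each library was clustered on 2000 variable genes, 30 components and 20 neighbours by the Louvain method at resolution 0.5 and seed 1. Clusters were named from marker lists by a rule set after the clusters were seen. UMIs were summed per class. Intervals are exact Poisson, Clopper-Pearson or conditional binomial at 95% and cover counting error only, since nuclei are not replicates. The ratio step was tested on simulated data. Python 3.11.15, numpy 2.4.6, scipy 1.17.1, scikit-learn 1.9.0, python-igraph 0.11.9 and matplotlib 3.10.9 were used.

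The members and lists were chosen with earlier results of these data known. Named genes were the members, up to 3 highest and 3 lowest denervated over untreated genes per list that went the same way against sham, up to 3 chaperone and ERAD genes highest in BA-like over EC-like nuclei, and the 5 genes most like Hspa5. Other list genes, among them those called in all 3 libraries, were named after their values were seen. Alternatives changed the filters, doublet removal, resolution, class naming, ambient RNA, scaling, thinning and thresholds.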

Additional observations from a re-analysis of the deposited data

Results flagged for a closer look

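Hspa5 stood in opposite directions in the 2 vascular classes after denervation. Denervated over untreated, its log2 ratio was 0.46 in EC-like nuclei, short of 1.5-fold, and -0.99 in pericyte-like nuclei, a difference of 1.44. Against sham the ratios were 0.59 and -0.94. With 1 library per condition the difference was not tested. The denervated pericyte-like value rested on 59 UMIs, and with at least 500 genes per nucleus the pericyte-like ratios were -0.53 and -0.43, with intervals that held 0. Its level, 155 CPM (118 to 200), overlapped the 198 CPM (170 to 230) of denervated barcodes under the gene minimum.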

How the results depend on the processing

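No paired analysis was possible because each condition had 1 library. Of 38 called member ratios of summed UMIs, leaving aside the difference of mean logs, 37 kept their sign in every alternative run and 22 stayed past 1.5-fold in every one. Levels of the members by class and library, each recomputed under every alternative, gave 900 values. Of these, 773 lay within the counting interval of the main level. Members called lower in BA-like than EC-like untreated nuclei numbered 1, but 2 with at most 10% mitochondrial UMIs, with CPM outside the mitochondrial genome and with thinned nuclei summed, and 3 with ambient RNA subtracted. In sham, ambient subtraction gave 2 higher in place of 1, and no doublet removal, CPM outside the mitochondrial genome and leaving out nuclei rich in heat shock UMIs each gave 1 lower in place of 0. In the denervated library, resolution 1, marker sums and leaving out heat shock-rich nuclei gave 2 higher and ambient subtraction 3, in place of 1. There, ambient subtraction gave 6 lower and joining all adipocyte clusters 1, in place of 2. All genes called with ambient RNA subtracted came to 33.4% lower in the untreated, 33.1% higher in sham, and 31.8% higher and 33.8% lower in the denervated library, and those under the other alternatives named so far to between 25.1% and 30.4%. Denervated over untreated in BA-like nuclei, thinning, a 50 CPM minimum and a 2-fold threshold gave 0 lower in place of 1. Of all genes, 5.68%, 2.47% and 0.40% were lower under these settings. Denervated over sham, marker sums gave 2 higher in place of 1 and a 2-fold threshold 1 lower in place of 2. Of all genes, 17.3% were higher with marker sums and 7.86% lower with the 2-fold threshold. Sham over untreated, 10% mitochondrial UMIs, resolution 1, marker sums, CPM outside the mitochondrial genome and joined adipocytes gave 2 higher in place of 1. All genes called higher there came to 17.7%, 16.9%, 15.8%, 19.8% and 15.8% in that order. In the Hspa5 split, thinning to 800 UMIs, no thinning and resolution 1 gave 0 higher, in place of 2 in sham and 1 in the denervated library. The share of all genes under these settings of the split was not computed. Among called ratios, the signs that turned were those of Xbp1 in BA-like over pericyte-like untreated nuclei as a difference of mean logs (0.0045), Ddit3 denervated over sham in EC-like nuclei with at least 500 genes (0.031), Atf6 in the sham split at resolution 1 (-0.46) and Trib3 in the sham split at 800 UMIs (-0.19). The cause was not tested. Ambient subtraction left some list medians of denervated EC-like nuclei without a value, and these were not given. Joining the adipocyte clusters and leaving out heat shock-rich nuclei were chosen after seeing the data.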
